A study of Mus musculus with 2 samples.

Results

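The contractile genes of smooth muscle were followed across the cells of the newborn mouse heart. The group comprised 10 genes taken by symbol from the 31053 genes of the count tables, namely Acta2, Actg2, Tagln, Cnn1, Lmod1, Smtn, Myh11, Myl9, Mylk and Des. All 10 had counts in both libraries. The cells came from intact mouse hearts at postnatal day 1 (P1) and postnatal day 7 (P7), for which the labels name no genotype and no treatment, and the strain was not given in the sources used here. Each age was 1 library made from 3 hearts of a litter, pooled, digested with collagenase for 20 min at P1 and 45 min at P7, depleted of red cells and sorted for live cells. Age, digestion time and litter therefore cannot be told apart, the libraries also differed in Xist (57336 UMIs at P1, 12 at P7) and Y-linked UMIs (2 and 18039), and no test between the ages was possible.

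Smooth muscle shortens when calcium activates the myosin light chain kinase, which phosphorylates the regulatory light chain of a smooth muscle myosin and lets it pull on actin filaments. The genes for these filaments share, in many cases, a CArG box in their regulatory DNA, the site bound by serum response factor (SRF) with its partner myocardin. In the heart these genes mark the coats of the coronary arteries and the great vessels, they are also used by some pericytes, activated fibroblasts and immature cardiomyocytes, and their level is commonly read as the degree of smooth muscle differentiation.

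The sequences of the CArG boxes found near 2 of the genes are shown because they carry the letters that SRF reads. RefSeq promoter windows of GRCm38.p6 were at hand for 7 of the 10 genes, and those of Myh11, Tagln and Actg2 were not among them. The motif searched was CC, then 6 bases of A or T, then GG, in the 250 bases before the RefSeq start, and a looser form allowed 1 G or C among the 6. Both forms read alike on either strand, and the looser form includes the strict one. Capitals mark the boxes, and each line reads 5′ to 3′ on the strand of its gene.
Acta2 box at chr19:34255438-34255467, minus strand: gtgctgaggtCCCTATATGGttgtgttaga
Acta2 box at chr19:34255388-34255417, minus strand: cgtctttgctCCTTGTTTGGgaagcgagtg
Myl9 promoter at chr2:156775288-156775389, plus strand: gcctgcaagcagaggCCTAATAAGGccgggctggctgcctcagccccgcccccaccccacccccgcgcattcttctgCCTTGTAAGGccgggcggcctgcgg
The 90-base stretch that holds both Acta2 boxes overlaps an exon of the gene as GENCODE M21 draws it, and the Myl9 stretch lies upstream of the first base of Myl9. The Acta2 boxes began 84 and 34 bases before its RefSeq start, and each held 1 G or C in its core. The first Myl9 box began 161 bases before the start and was strict, and the second began 99 bases before it and held 1 G or C. The strict form was present in 1 of the 7 windows and in 1.47% of 32851 windows of the same length. The looser form was present in 2 of the 7 and in 8.59% of all windows. The windows of Cnn1, Des, Lmod1, Mylk and Smtn held neither form, which says only that these letters are not within 250 bases of those starts.

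Cells were kept where they held 200 to 8000 genes and at most 20% mitochondrial counts. This left 4991 cells at P1 with 59026295 unique molecular identifiers (UMIs, 1 per captured mRNA molecule), and 8511 cells at P7 with 97432007. The median cell held 10875 UMIs at P1 and 10104 at P7. Among the kept cells, 13 barcode sequences occurred in both libraries. Cells were sorted into classes by genes outside the group. Mustn1 with Olfr558 marked smooth muscle, Kcnj8 pericytes, Pdgfra fibroblasts, Fmod with Scx valve-type cells, Cdh5 endothelium and Upk3b epicardium. Ptprc for leucocytes and Ryr2 with Ttn for cardiomyocytes were added. The smooth muscle class held 81 cells at P1 and 348 at P7. A separate set of 51 and 87 cells passed both the smooth muscle and the pericyte gate, and is called the double-gated mural cells. The cells passing no gate numbered 1400 and 1729. Levels are given as CPM, the UMIs of a gene per 1000000 UMIs of its class, with exact Poisson intervals at 95% that cover counting error only. Since the kit counts 1 tag near the 3′ end of each molecule, CPM is not scaled by length and genes were compared on it without a length correction.

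The gates were set beside lists of other markers. These lists were chosen with earlier results of these data known, so this was no independent check. Of 10 smooth muscle markers, 9 were highest in the smooth muscle class in each library. Of 9 pericyte markers, 8 at P1 and 9 at P7 were highest in the pericyte class, but that class was not pure. Its summed level of 7 fibroblast markers came to 7611 CPM at P1 and 8841 CPM at P7, against 1465 and 2290 CPM in the smooth muscle class. At P1 it also held Tbx4, a gene of lung mesenchyme, at 18.1 CPM (0 at P7), and 34.1% of its cells carried a UMI of the lung and posterior list, against 9.57% at P7 and 15.2% and 2.61% of leucocytes. In the smooth muscle class the corresponding shares were 17.3% and 7.47%. The part of these cells in the results was not tested.

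As a group, the contractile genes made up 3.97% of all UMIs of the smooth muscle class at P1 and 4.59% at P7. Their sum was 39736 CPM (39345 to 40131) at P1 and 45931 CPM (45715 to 46147) at P7. Among the other sets of cells, the double-gated mural cells held 15035 and 11564 CPM. The cardiomyocyte class held 4463 CPM at P1, and the ungated cells 3608 and 1367 CPM. Cells passing other combinations of gates held 1924 and 3646 CPM. The valve-type class held 2664 and 1855 CPM, the pericyte class 2355 and 2302 CPM, and the fibroblast class 560 and 491 CPM. Leucocytes, which should lack these genes and were used as the gauge of free RNA, held 64.4 and 99.8 CPM. Barcodes with fewer than 200 genes held 286 and 494 CPM, so free RNA in other classes may differ from this gauge. Among the 8 gated classes, the smooth muscle class was the highest for 9 of the 10 genes in the P1 library. The exception was Des, at 941 CPM in cardiomyocytes against 171 CPM. In the P7 library it was the highest for all 10, but there the cardiomyocyte class was empty. The step from 9 to 10 is therefore no difference between the libraries. The plot of levels by class shows this order. No such count over all genes is set beside these 9 and 10, which are a description only.

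**Figure D1:**
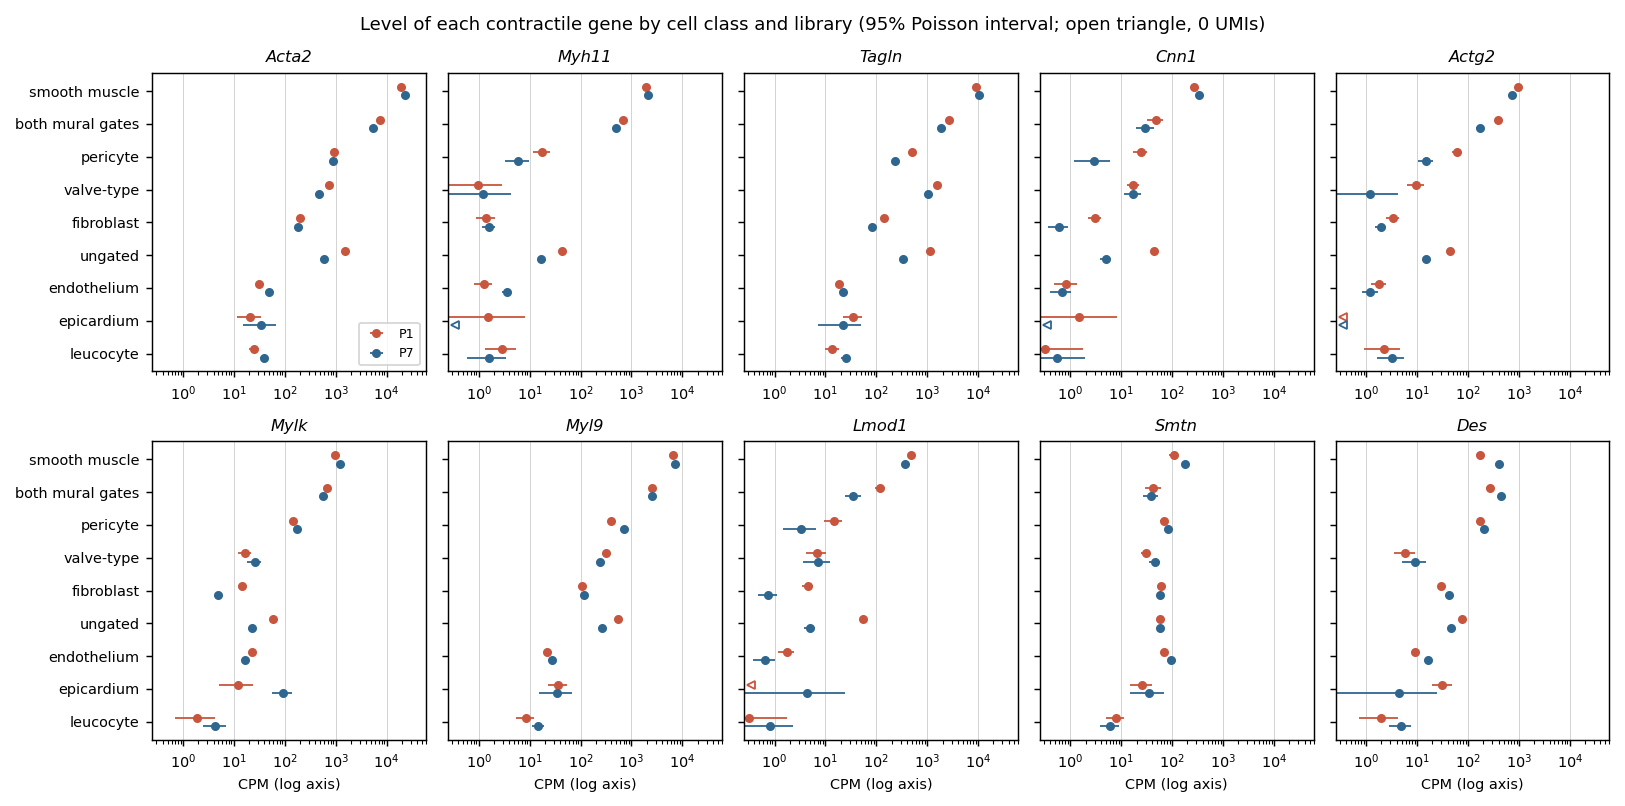
CPM of each contractile gene (log horizontal axis) in 9 sets of cells (vertical axis), P1 in red and P7 in blue, with 95% Poisson intervals. The row "both mural gates" gives the double-gated mural cells, the leucocyte row is the gauge of free RNA and open triangles mark 0 UMIs. The smooth muscle points stand to the right of every other row of the same age for all genes but Des, whose double-gated mural cells were higher, and Smtn is the gene that spreads most evenly over the rows.

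Acta2, the smooth muscle alpha actin of the thin filament (chr19:34241090-34255590 of GRCm38, minus strand), was the most abundant of the group. It reached 19102 CPM (18831 to 19376) at P1 and 22991 CPM (22839 to 23144) at P7 in the smooth muscle class. Every one of the 81 and 348 cells held at least 1 of its UMIs. Across single cells its CPM ran from 1689 to 52199 at P1 with a median of 16486, and from 157 to 61666 at P7 with a median of 19273. The 2 ranges overlapped nearly in full. In the double-gated mural cells Acta2 was at 7607 and 5443 CPM, in pericytes at 947 and 880 CPM, in valve-type cells at 737 and 472 CPM and in fibroblasts at 200 and 178 CPM. In endothelium it was at 31.2 and 48.7 CPM, near the 25.1 and 38.5 CPM of leucocytes, the gauge of free RNA used here. Acta2 made up 60.4% (59.9 to 60.9, exact binomial) of the UMIs of 6 actin genes in the smooth muscle class at P1 and 62.5% (62.3 to 62.8) at P7, whereas in pericytes it made up 9.99% and 7.65%, most of the rest being Actb.

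Actg2, the smooth muscle gamma actin that is known from visceral muscle (chr6:83512905-83536265, minus strand), was at 955 CPM (895 to 1018) at P1 and 746 CPM (719 to 775) at P7 in the smooth muscle class. It gave 3.02% and 2.03% of actin UMIs there. It was present in 88.9% of the class's cells at P1 and 78.4% at P7. After each cell was thinned to 2000 UMIs, so that depth was equal, the shares were 72.5% (61.4 to 81.9) and 58.2% (52.8 to 63.5). With Lmod1, it was one of the genes whose level in the class was higher at P1. The next class was the pericytes, at 59.6 CPM (48.4 to 72.6) and 14.7 CPM (10.3 to 20.5).

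Tagln encodes transgelin, or SM22-alpha, which crosslinks actin (chr9:45929619-45936058, minus strand). Its level was 9269 CPM (9081 to 9461) at P1 and 10365 CPM (10263 to 10468) at P7 in the smooth muscle class. For Cnn1 and Lmod1 the class that came next was the valve-type class at P7 only. Among the thin filament genes Tagln alone had the valve-type class next at both ages, where its level was 1528 CPM (1484 to 1572) and 1032 CPM (984 to 1082). There, 64.6% and 62.4% of thinned cells held a Tagln UMI, against 3.57% and 7.57% of leucocytes, whose median depth was 7693 and 6363 UMIs against 13490 and 16340 in valve-type cells. The ratio of Tagln to Acta2 also turned over. It was 48.5 and 45.1 Tagln UMIs per 100 of Acta2 in the smooth muscle class and 207 and 219 per 100 in valve-type cells, where Myh11 was at 0.975 and 1.19 CPM.

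The other thin filament genes were less abundant. Cnn1, calponin 1, an actin-binding protein that restrains the myosin ATPase (chr9:22099216-22109630, plus strand), was at 275 CPM (243 to 309) and 341 CPM (322 to 360). It was patchy, since 33 of 81 cells at P1 and 167 of 348 at P7 held none of its UMIs. Lmod1, leiomodin 1, which nucleates actin filaments (chr1:135324807-135368065, plus strand), was at 490 CPM (447 to 535) and 368 CPM (349 to 388). Of the group it was, with Myh11, among those with the widest gap to other classes, since the next class held 14.4 CPM at P1 and 7.15 CPM at P7. Smtn, smoothelin, an actin-associated protein named for smooth muscle (chr11:3517523-3540612, minus strand), was at 107 CPM (87.6 to 129) and 182 CPM (169 to 196), and did not mark the class. Endothelium held 68.6 and 95.5 CPM and fibroblasts 59.7 and 58.2 CPM, above the 7.73 and 6.15 CPM of leucocytes. The smooth muscle class held 3.04% of all Smtn UMIs at P1 and 9.69% at P7, against 37.7% and 38.0% in endothelium. Smtn transcripts that share a 3′ end could not be told apart by these counts.

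Among the motor genes, Myh11, the smooth muscle myosin heavy chain (chr16:14194535-14291372, minus strand), was at 1910 CPM (1825 to 1998) at P1 and 2158 CPM (2112 to 2205) at P7 in the smooth muscle class. The next class, pericytes, held 17.5 CPM (11.7 to 25.1) and 5.90 CPM (3.22 to 9.90). Fibroblasts, at 1.40 and 1.57 CPM, and valve-type cells were no higher than leucocytes at 2.90 and 1.60 CPM. Myh11 gave 87.1% and 91.0% of the UMIs of 5 myosin heavy chain genes in the smooth muscle class, 63.0% and 63.9% in the double-gated mural cells, and 5.69% and 1.95% in pericytes, where Myh9, a non-muscle heavy chain, led. Relative to Acta2 its level came in steps. There were 10.0 and 9.39 Myh11 UMIs per 100 of Acta2 in the smooth muscle class, 8.90 and 9.15 in the double-gated mural cells, 1.84 and 0.670 in pericytes and 0.704 and 0.881 in fibroblasts. Thus the double-gated mural cells had less of both genes than the smooth muscle class but nearly the same proportion of them, and the pericyte class did not. Leucocytes held 11.5 and 4.17 per 100, on few UMIs, so the proportion alone does not name a set of cells. The 9 pericyte markers summed to 8687 and 13875 CPM in double-gated mural cells, against 6478 and 12536 CPM in pericytes. The 10 smooth muscle markers summed to 1835 and 1767 CPM there, against 2938 and 3541 CPM in the smooth muscle class.

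Myl9, the regulatory light chain that the kinase phosphorylates (chr2:156775420-156781658, plus strand), was at 6505 CPM (6347 to 6665) and 7172 CPM (7087 to 7258), and gave 56.5% and 52.3% of the UMIs of 6 myosin light chain genes. Pericytes held 398 CPM at P1 and 701 CPM at P7. Mylk, the myosin light chain kinase (chr16:34745210-35002420, plus strand), was at 953 CPM (893 to 1016) and 1195 CPM (1161 to 1231). Its drop towards pericytes, at 144 and 173 CPM, was smaller than that of Myh11, at 6.60- and 6.90-fold against 109- and 366-fold. It was also present in endothelium at 22.5 and 16.6 CPM, above the 1.93 and 4.28 CPM of leucocytes. The tags do not separate the long and short kinases or telokin, which share the 3′ end of the gene.

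Des, desmin, the intermediate filament of muscle (chr1:75360329-75368579, plus strand), stood apart from the rest. It was at 171 CPM (146 to 198) at P1 and 411 CPM (391 to 432) at P7 in the smooth muscle class. The double-gated mural cells were higher at both ages, at 267 CPM (230 to 308) and 445 CPM (403 to 491), though at P7 the intervals overlapped. Pericytes held 170 CPM (151 to 191) and 202 CPM (185 to 221), so that at P1 the smooth muscle and pericyte classes did not differ beyond counting error. The highest gated class at P1 was the 7 cardiomyocytes, at 941 CPM. At P7 the 1 cell that passed the cardiomyocyte gate also passed another gate and was left out. Vim, vimentin, made up most of the intermediate filament UMIs in the smooth muscle class, at 92.7% and 83.6%, and the share of Des was 3.95% (3.39 to 4.58) at P1 and 11.5% (10.9 to 12.0) at P7.

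Most members varied with Acta2 from cell to cell, and to different degrees. Over 80 cells at P1 and 342 at P7 of the smooth muscle class, all thinned to 2000 UMIs, Spearman's rho with Acta2 was 0.77 and 0.74 for Myl9, 0.72 and 0.76 for Tagln and 0.60 and 0.49 for Actg2. It was 0.45 and 0.34 for Myh11, 0.34 and 0.52 for Cnn1 and 0.36 and 0.33 for Lmod1. It was lower for Smtn, at 0.18 and 0.26, and for Mylk, at 0.14 and 0.17. For Des it was -0.11 and -0.088, so that desmin alone had a negative sign at both ages. These values are descriptions over cells of 1 library each, and they are lowered for genes with few counts. A thinned cell of the smooth muscle class held a median of 7 of the 10 genes at either age, a double-gated mural cell 4 at P1 and 3 at P7, a pericyte 1 and 2, and a fibroblast 0 at both. At least 5 of the genes were detected in 93.8% and 92.1% of smooth muscle cells, in 25 of 51 and 27 of 87 double-gated mural cells and in 3.14% and 2.55% of pericytes. The box plot of single cells shows the spread.

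**Figure D2:**
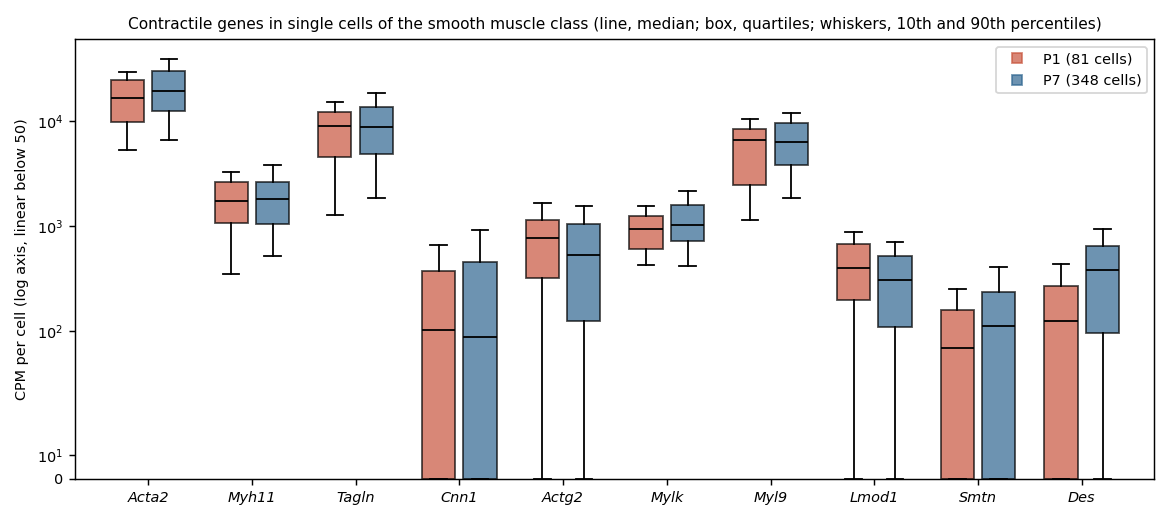
CPM per cell (log vertical axis, linear below 50) of each contractile gene in the 81 cells of the P1 and the 348 cells of the P7 smooth muscle class; boxes give quartiles, lines medians and whiskers the 10th and 90th percentiles. Boxes of the ages overlap for every gene, and the medians differ most for Des, at 125 CPM at P1 and 383 CPM at P7.

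Between the ages, the levels within the smooth muscle class were close. The sum of the group was lower at P1 by 0.21 on the log2 scale, a log2 ratio of P1 over P7 of -0.21 (-0.22 to -0.19). With Mustn1 alone as the gate this ratio was -0.63. The intervals of these ratios are exact binomial ones and again cover only counting error, so that a ratio whose interval leaves out 0 still compares 2 libraries and not the ages. With a change of at least 2-fold among genes with 50 or more UMIs over both libraries as the mark, 1 of the 10 genes was past it, Des, higher at P7, at a log2 ratio of -1.27 (-1.51 to -1.04). Of all 8073 genes tested in the class, 3.96% were past 2-fold in either direction, and 2.4% were so with the higher level at P7. When cells that also passed other gates were kept in the class, Des was at -0.90 and no member passed. The other 9 were within 2-fold. Actg2 and Lmod1 were the genes higher at P1, at 0.36 (0.25 to 0.46) and 0.41 (0.26 to 0.56), and the remaining 7 ran from -0.14 for Myl9 to -0.76 (-1.07 to -0.47) for Smtn. The median of the 10 was -0.22 and that of all genes tested 0.02. Actg2 turned to -0.16 when Mustn1 alone was the gate, and Cnn1 from -0.31 to 0.14 when cells were thinned to 2000 UMIs. The class at P1 also held Tnnt2, a cardiomyocyte troponin, at 466 CPM against 110 CPM at P7, with Actc1 at 31.3 and 16.1 CPM and Myh6 at 3.03 and 4.23 CPM.

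In whole libraries 9 of the 10 genes were lower at P1, and none was past 2-fold, where 10.2% of 15075 genes were. One of the 9, Cnn1, differed by less than counting error, at -0.093 (-0.21 to 0.023), and was at 0.16 with cells thinned to 2000 UMIs. Acta2 was at 857 CPM (850 to 865) at P1 and 1277 CPM (1270 to 1284) at P7. Myh11 showed the widest gap, at 56.3 and 107 CPM, a log2 ratio of -0.93 (-0.99 to -0.87). Lmod1 was the exception, at 22.9 and 18.1 CPM, with a ratio of 0.34 (0.24 to 0.44). In such sums fewer cells of a type and less RNA per cell cannot be told apart, and here the smooth muscle class was 1.62% (1.29 to 2.01) of kept cells at P1 and 4.09% (3.68 to 4.53) at P7. This share depended on the gate. The class held 173 and 430 cells with Mustn1 alone as the gate, and 145 and 506 with cells of several gates kept. Digestion time also differed between the libraries, and the part of digestion time was not tested.

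Under the main gates, the share of the transcripts in the smooth muscle class differed more between the libraries than their level there. That share depends on class size, and the class was 1.62% of kept cells at P1 and 4.09% at P7. It took only cells with a UMI of both Mustn1 and Olfr558, so any smooth muscle cell lacking either lay outside it. With Mustn1 alone as the smooth muscle gate, the class held 173 and 430 cells and the log2 ratio of its sum was -0.63. The shares here were taken under the main gates only. At P7 the smooth muscle class held 65.6% of all UMIs of the group, and at P1 33.2%. The cells that passed no gate held 30.6% at P1 and 7.76% at P7. For Cnn1 the ungated cells held 46.3% of UMIs at P1, more than the 28.7% of the smooth muscle class, and at P7 the shares were 4.43% and 77.3%. For Tagln the ungated cells held 35.3% at P1 against 28.3% in smooth muscle, and 8.62% against 67.5% at P7. For Myh11 the smooth muscle class held most of the UMIs at both ages, at 57.0% and 78.3%.

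**Figure D3:**
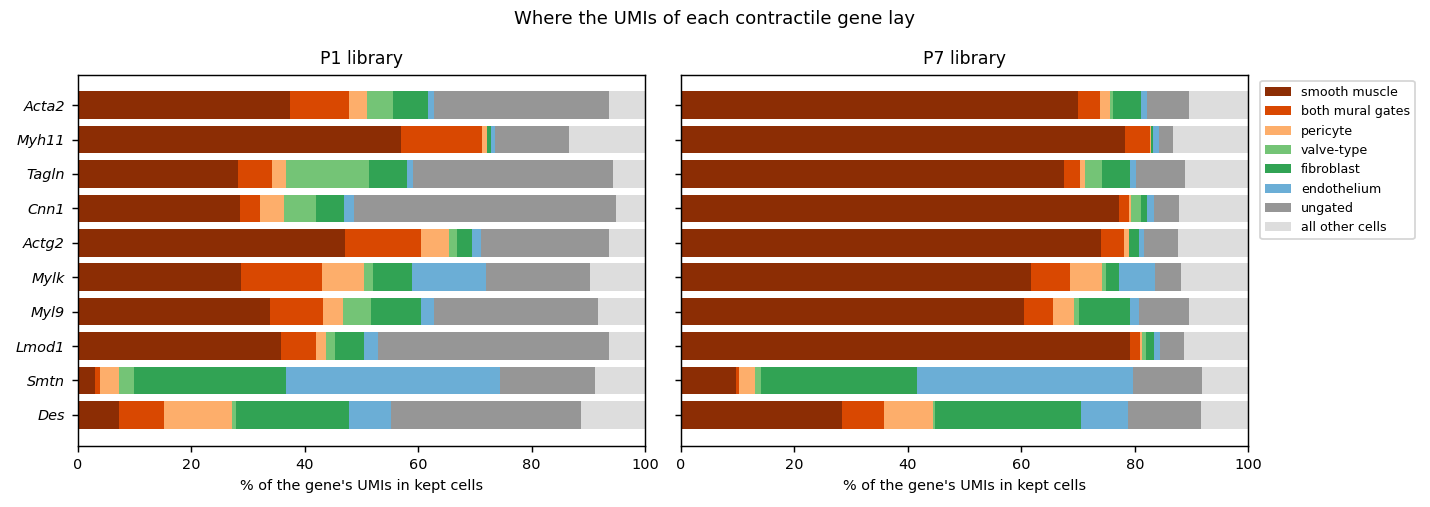
Share of the UMIs of each contractile gene (horizontal axis, % of its UMIs in kept cells) that lay in each set of cells, for the P1 library on the left and the P7 library on the right. The dark smooth muscle bars are longer at P7 for every gene, the grey ungated bars are longer at P1, and the smooth muscle share is lowest for Smtn and Des at both ages, while at P1 Myh11 alone has most of its UMIs in smooth muscle.

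In the ungated cells 8 of the 10 genes were past 2-fold, all higher at P1, against 6.29% of 12431 genes in that direction. Lmod1 was at 54.7 and 4.92 CPM, a log2 ratio of 3.47 (3.12 to 3.85), and Cnn1 at 43.6 and 4.92 CPM, a ratio of 3.14 (2.79 to 3.52). Acta2 was at 1545 and 603 CPM, a ratio of 1.36 (1.32 to 1.40). Smtn was level at 57.9 and 57.3 CPM. As a mean of per-cell CPM in place of the summed counts, 5 of the 8 came under 2-fold, with Acta2 at 0.49, Myh11 at -0.16, Myl9 at 0.54, Actg2 at 0.78 and Mylk at 0.69, and Tagln, Cnn1 and Lmod1 stayed past it. With gates at 3 UMIs, and pairs at 2 of each gene, Acta2 came to 0.82. The median depth of ungated cells was 4274 UMIs at P1 and 6987 at P7, and the part of depth was not tested. Lung markers also differed between the ungated cells of the libraries. The lung and posterior list summed to 1182 CPM in ungated cells at P1 and 3.52 CPM at P7, most of it Sftpc, a surfactant gene, at 1007 and 0 CPM. The list was at 20.6 and 3.21 CPM in leucocytes. With the 22.4% and 2.72% of ungated cells that held a UMI of the list left out, Actg2 came to 0.94 and Myl9 to 0.996, and the other 6 genes stayed past 2-fold, with Acta2 at 1.26 and Lmod1 at 3.25. The Acta2 counts came from few cells. With a mark of at least 1000 CPM and 3 UMIs of Acta2, chosen after the values were seen, 186 of the 1400 ungated cells at P1 were rich in it and held 92.9% of the class's Acta2 UMIs, equal to 28.5% of those of the library. At P7 the 152 of 1729 such cells held 5.55% of the library's. At P1 the rich cells held Sftpc at 10.7 CPM, against 1294 CPM in the other ungated cells and 13.5 CPM in leucocytes. Foxf1 and Tbx4, also of the lung and posterior list, were at 17.3 and 7.55 CPM in the rich cells. In the other ungated cells they were at 11.9 and 4.86 CPM. The part of lung cells was not tested. No leucocyte of 323 and 459 passed the mark.

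The Acta2-rich ungated cells of the libraries shared some of their leading genes and differed in others. Set against the remaining ungated cells, both held Mustn1, Tpm2, Map3k7cl, Gm13889 and Rgs5, a mural gene, among their 10 leading genes. Those of P1 were led by Sost, at 244 CPM against 7.04 CPM, and also by Igfbp2 and by Eln, elastin, at 12524 CPM against 1399 CPM. Ramp1, at 158 CPM against 18.2 CPM, and Carmn, at 113 CPM against 17.0 CPM, were also among the 10 of P1. Those of P7 were led by Rgs5, at 1160 CPM against 71.1 CPM, with Eln at 3320 CPM against 1458 CPM. Their contractile genes also differed in proportion. Myh11 was at 178 CPM at P1 and 131 CPM at P7 beside 6412 and 4304 CPM of Acta2, while Cnn1 was at 183 and 34.3 CPM and Lmod1 at 233 and 38.6 CPM. The gate gene Mustn1 was at 302 and 224 CPM in these cells and the other gate gene, Olfr558, at 4.89 and 5.61 CPM, against 2088 and 428 CPM of the 2 genes in the P1 smooth muscle class. Cardiomyocyte transcripts were present at P1, with Tnnt2 at 1265 CPM and Actc1 at 1076 CPM, against 62.9 and 76.0 CPM at P7. The other ungated cells of P1 held these 2 genes at 695 and 583 CPM, and their part in the P1 values was not tested. These cells were chosen by Acta2, so its level in them is no result. The smooth muscle class was chosen by Mustn1 with Olfr558 and no ungated cell held both, so the gap in these genes is no result either.

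In the double-gated mural cells the group was at 15035 CPM (14749 to 15325) at P1 and 11564 CPM (11343 to 11788) at P7, a log2 ratio of 0.38. This difference turned to -0.038 under gates at 3 UMIs and pairs at 2, with Myh11 at -0.22 and Tagln at -0.23, and it was also lost with Mustn1 alone as the smooth muscle gate. Of the 10 genes, 2 were past 2-fold, both higher at P1, against 1.65% of 4842 genes in that direction. They were Actg2, at 383 and 171 CPM with a log2 ratio of 1.16 (0.87 to 1.46), and Lmod1, at 117 and 35.3 CPM with a ratio of 1.72 (1.12 to 2.37). Actg2 fell below 2-fold, at 0.89, under stricter gates, and at 0.88 with Mustn1 alone as the smooth muscle gate, and Lmod1, at 0.55, with single-gene gates at 1 UMI. Des went the other way, at -0.73 (-0.99 to -0.48). Within these cells the spread was wide, since the quartiles of Acta2 were at 1163 and 12020 CPM at P1 and at 257 and 6334 CPM at P7.

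In pericytes the sum of the group differed by less than counting error, at a log2 ratio of 0.033 (-0.027 to 0.092), and its members went in different directions. With 7 genes past the minimum of 50 UMIs, Tagln at 511 and 236 CPM, a ratio of 1.12 (0.96 to 1.27), and Actg2 at 59.6 and 14.7 CPM, a ratio of 2.00 (1.45 to 2.61), were past 2-fold and higher at P1, where 2.1% of 8011 genes were. Myl9 was lower at P1, at -0.82 (-0.95 to -0.69). The Actg2 counts lay in few cells, 11 of 167 at P1 and 13 of 282 at P7, and 3 cells held 78.8% of them at P1 and 71.4% at P7. For Tagln 3 cells held 28.6% at P1 and 49.4% at P7. When the gate was raised to 3 UMIs of Kcnj8, with pairs at 2 UMIs of each gene, Tagln came to -0.062 and Actg2 to 0.094, so neither difference held under the stricter gate. With Abcc9, a second pericyte gene, also required, an alternative added after the data were seen, 128 cells remained at P1, Tagln was at 0.87 and the sum at -0.34. Relative to Acta2, pericytes held more of the kinase, the light chain and desmin than the smooth muscle class. Per 100 Acta2 UMIs they held 15.3 and 19.7 of Mylk, against 4.99 and 5.20 in smooth muscle, and 42.0 and 79.6 of Myl9, against 34.1 and 31.2. For Des the numbers were 17.9 and 23.0, against 0.893 and 1.79, and the double-gated mural cells lay between, at 3.51 and 8.18. For Des and Myl9 this was not particular to pericytes, and for Mylk it was also seen in endothelium. Fibroblasts held 14.9 and 23.4 of Des, 53.2 and 67.1 of Myl9, and 7.20 and 2.77 of Mylk. Endothelium, low in Acta2, held 29.1 and 33.0 of Des, 70.1 and 55.3 of Myl9, and 72.1 and 34.1 of Mylk. The Acta2 of pericytes also came from a minority of cells, since 16.8% at P1 and 23.0% at P7 were over 1000 CPM and held 84.7% and 80.6% of its UMIs in the class. These cells were not alike in the libraries. At P1 they held Eln at 2987 CPM, Tgfbi at 891, and the pericyte markers Pdgfrb at 438 and Rgs5 at 2640. The other pericytes of P1 held 800, 67.6, 857 and 3369 CPM. At P7 the 4 genes were at 138, 0, 966 and 6820 CPM, against 296, 40.8, 1057 and 7347 CPM in the others. Hhip was at 96.1 CPM against 12.4 CPM at P1, and at 0 against 1.70 CPM at P7. Foxf1 and Tbx4, of the lung and posterior list, were at 48.0 and 10.7 CPM at P1, against 50.5 and 20.2 CPM in the others. The part of lung cells was not tested.

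In fibroblasts all 10 genes passed the minimum and 3 were past 2-fold, all higher at P1, against 3.96% of 12387 genes. They were Cnn1 at 3.00 and 0.59 CPM, a log2 ratio of 2.32 (1.56 to 3.17), Lmod1 at 4.47 and 0.74 CPM, a ratio of 2.57 (1.91 to 3.31), and Mylk at 14.4 and 4.95 CPM, a ratio of 1.54 (1.24 to 1.83). The counts behind them were small. Lmod1 had 70 UMIs in 22 of 913 cells at P1 and 25 UMIs in 15 of 1925 cells at P7, and leucocytes held 0.32 and 0.80 CPM. With cells of several gates kept, Cnn1 was at 0.66 and Mylk at 0.67, while Lmod1 stayed past 2-fold in the 13 alternatives run, at 1.30 or more. A UMI of the lung and posterior list was held by 20.5% of fibroblasts at P1 and 2.29% at P7. With those cells left out, the log2 ratio of the group's sum went from 0.19 to 0.053. The part of lung cells was not tested. Acta2 was nearly level, at 0.16 (0.098 to 0.22), or -0.33 with cells of several gates kept, and 5.26% of fibroblasts at P1 and 3.95% at P7 passed the mark of 1000 CPM. In valve-type cells 6 genes passed the minimum and 0 were past 2-fold, where 4.24% of 8252 genes were, with Acta2 at 0.64 (0.53 to 0.76) and Tagln at 0.57 (0.49 to 0.65). With cells of several gates kept, Acta2 came to -0.012 and Tagln to 0.23 there, so that the difference in Acta2 was lost. In endothelium 9 passed the minimum. Lmod1, at 1.42, and Myh11, at -1.48, were past 2-fold there, where 6.77% of 12177 genes were, and both lay at low levels. Lmod1 was at 1.72 and 0.64 CPM, against 0.32 and 0.80 CPM in leucocytes. Myh11 was at 1.25 and 3.54 CPM, against 2.90 and 1.60 CPM. The leucocyte values rest on few UMIs, 1 and 3 for Lmod1 and 9 and 6 for Myh11.

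**Figure D4:**
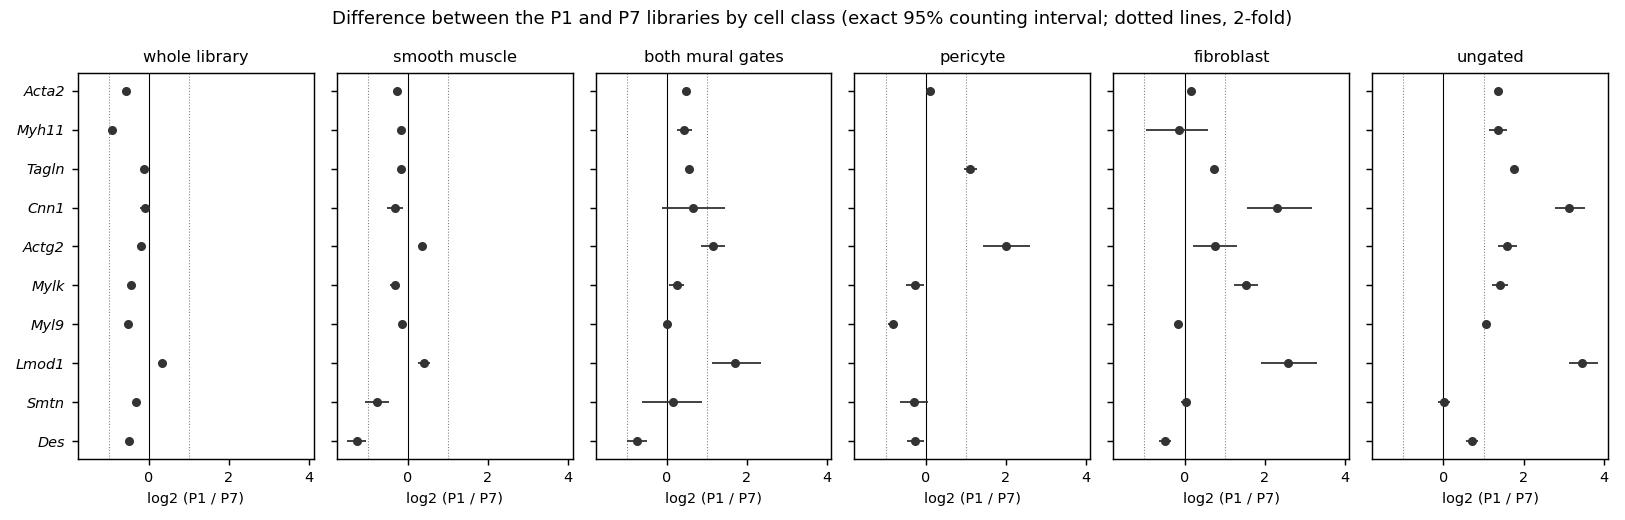
Log2 ratio of P1 over P7 (horizontal axis) of each contractile gene in 6 sets of cells, with exact 95% intervals for counting error; genes with fewer than 50 UMIs over both libraries are left out and dotted lines mark 2-fold. In smooth muscle only Des is past a dotted line, while in the ungated cells 8 genes are past the right one.

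The wider contractile apparatus was read from 47 further genes in 5 lists. In the smooth muscle class 39 of them passed the minimum, and 21 of the 47 were highest in this class in both libraries. No such count over all genes is set beside the 21, which is a description only. Between the libraries 37 of the 39 were within 2-fold and 2 were past it, beside 3.96% of all genes tested in the class, so that their share was near that of genes at large. All 14 genes of the thin filament and dense plaque and all 11 genes of myosin control were within 2-fold, with median log2 ratios of -0.22 and -0.04. Of the transcription list, 7 of 9 passed, and Gata6, a zinc finger factor of the outflow tract and vascular muscle, was past 2-fold, at 67.7 CPM at P1 and 24.8 CPM at P7, a ratio of 1.45 (0.97 to 1.91). Of the calcium and potassium list, 6 of 7 passed, and Pln, phospholamban, a brake of the calcium pump, was past 2-fold in the other direction, at 250 and 547 CPM, a ratio of -1.12 (-1.32 to -0.94). Of 6 receptors only Ednra had enough counts, and it was within 2-fold.

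The genes outside the group whose levels ran most like those of Acta2, Myh11 and Des over 15 profiles, 1 per gated class and library, were sought among 13018 genes by Pearson's r of log2(CPM + 1). For Acta2 they were Cacna1c, the L-type calcium channel, Map2 and Ctnna3, each with r of 0.94. For Myh11 they were Gm13861, Slc38a11 and Uba2, each with r of 0.98. For Des they were Pygm, the muscle glycogen phosphorylase, at 0.96, Ech1 at 0.93 and Pyurf at 0.92. Among the members themselves Acta2 ran closest to Myl9, at 0.97, and Myh11 closest to Actg2, at 0.95, and the lowest value was 0.34, between Mylk and Des. Profiles of 1 library share its depth and free RNA, so these values are descriptions.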

How the data were processed

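Single cell libraries of P1 and P7 hearts (1 each) were analysed from the deposited UMI counts per gene and barcode, which the authors made with Cell Ranger 3.1.0 on mm10 (GRCm38), not normalised. Reads were not reprocessed. Barcodes with 200 to 8000 genes and at most 20% mitochondrial UMIs were kept. Gates needed 2 UMIs of a single gene or 1 UMI of each gene of a pair, and cells passing several gates were left out, except that valve-type took precedence over fibroblast. No doublet caller was used in the main setting. Ratios have 0.5 counts added to each sum. Lists and members were chosen with earlier results of these data known; the named genes are all members, listed genes past 2-fold, and the 3 most alike of Acta2, Myh11 and Des. A profile of P7 cardiomyocytes could not be had. Ratio intervals were tried on simulated Poisson sums of the smooth muscle class. Such sums leave out the clumping of counts in single cells, so the trial cannot show how the intervals hold in these data. Gene positions are GENCODE M21. The last 400 bases of each member's transcript shared no 50-base run with another gene, and genes overlapping Tagln, Mylk, Lmod1, Smtn or Des lay on the other strand. Python 3.11.15, numpy 2.4.6, scipy 1.17.1, pandas 2.3.3 and scikit-learn 1.9.0 were used.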

Additional observations from a re-analysis of the deposited data

Results flagged for a closer look

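Myh11 was past 2-fold in opposite directions in 2 sets of cells, higher at P1 in the ungated cells, at a log2 ratio of 1.35, and higher at P7 in endothelium, at -1.48. The difference between these sets was not tested. In endothelium Myh11 was low, at 1.25 and 3.54 CPM, against 2.90 and 1.60 CPM in leucocytes. Barcodes with fewer than 200 genes, which no comparison used, held the sum of the contractile genes at 286 CPM at P1 (898 UMIs) and 494 CPM at P7 (104 UMIs), against 64.4 and 99.8 CPM in leucocytes.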

How the results depend on the processing

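No paired analysis was possible because each age had 1 library. The summed log2 ratio kept its direction in every alternative run for whole libraries and for smooth muscle, and turned in pericytes, in fibroblasts and in the double-gated mural cells, where 0.38 became -0.038 with gates at 3 UMIs and pairs at 2. For whole libraries, where it was -0.44, it moved beyond its counting interval to -0.45 without a mitochondrial limit, -0.48 with cells thinned to 2000 UMIs, -0.40 with mitochondrial, haemoglobin and ribosomal protein genes left out of the scaling, -0.50 as a mean of per-cell CPM and -0.39 with the 6% of cells most like simulated doublets removed. For smooth muscle (-0.21) it was -0.23 without a mitochondrial limit, -0.35 with cells of several gates kept, -0.19 with Olfr558 alone and -0.63 with Mustn1 alone as the gate, and -0.18 with the reduced scaling. For pericytes (0.033) it was -0.65 with gates at 3 UMIs and pairs at 2, 0.24 with cells of several gates kept, -0.39 with Mustn1 alone, -0.13 without cells holding a lung or posterior UMI and, in alternatives added after the data were seen, -0.34 with Abcc9 required and -0.22 with both. For fibroblasts (0.19) it was 0.43 with single-gene gates at 1 UMI, 0.25 with gates at 3 UMIs and pairs at 2, -0.16 with cells of several gates kept, 0.072 with Mustn1 alone, 0.28 thinned, 0.24 with the reduced scaling, 0.081 without simulated doublets and 0.053 without lung or posterior UMIs. The number of members past 2-fold in smooth muscle was 1 in every setting run except 0 with cells of several gates kept, and 8 or 9 members were highest there in both libraries. Tagln in pericytes reversed to -0.062 with gates at 3 UMIs and pairs at 2, and Myh11 in ungated cells to -0.16 as a mean of per-cell CPM. The causes were not tested. Of 218 alternatives for 17 ratios past 2-fold, 216 kept the sign and 186 stayed past 2-fold. The 17 included the sum in ungated cells, at 1.40, and left out Lmod1 and Myh11 in endothelium, which were not re-run. Some settings gave no value and are in neither count. Actg2 in pericytes had 11 alternatives, against 15 for Tagln there. Cnn1 in fibroblasts had 11, against 13 for Lmod1 there, and Lmod1 in the double-gated mural cells had 12. Ratios under 2-fold in the main setting went past it in 13 alternatives. Among them were Mylk in valve-type cells, at -1.45, and Myl9 in pericytes, at -1.24. In the double-gated mural cells Smtn reached -1.55, Cnn1 1.22 and Tagln 1.12. Myh11 in fibroblasts ran from -1.96 to 1.21.

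With 1 library per age, no spread between hearts can be had, and intervals cover counting error only. Fewer than 50 UMIs over both libraries left Myh11, Cnn1 and Lmod1 without a reading in pericytes.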

Other observations

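The 7 cardiomyocyte-gated cells of the P1 library held a part of the contractile set. Myl9 was at 2117 CPM (1887 to 2368), Acta2, which is known as an early actin of cardiac muscle, at 1328 CPM (1147 to 1530) and Des at 941 CPM (789 to 1113). Des was present in 7 of these cells, Myl9 in 6 and Acta2 in 4. Tagln had 2 UMIs there, and Myh11, Actg2, Mylk and Lmod1 had 0, which allows up to 20.8 CPM each at 3 counts. With 7 cells of 1 library, these are values only.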
